A study of Rattus norvegicus with 24 samples.

Results

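The 6 arrays described here measured microRNAs (miRs) in INS1 cells exposed to pro-inflammatory cytokines for 24 h (24h_Cyt, 3 arrays) or for 6 h (6h_Cyt, 3 arrays). They were chosen by the group named in each sample's title and make up 6 of the 24 arrays of the series. INS1, a line derived from a rat insulinoma, still makes insulin and stands in for the pancreatic β-cell. All cells were cultured for 48 h before treatment, and the cytokines were 150 pg/ml IL-1β with 0.1 ng/ml IFN-γ. The other 18 arrays, 3 per group, held cells without cytokines (6h_Ctrl, 24h_Ctrl), with Givinostat alone (6h_Giv_Ctrl, 24h_Giv_Ctrl) and with Givinostat and cytokines (6h_Giv_Cyt, 24h_Giv_Cyt). Givinostat, an inhibitor of lysine deacetylases, was added at 125 nM 1 h before the cytokines. The comparison asks how the miR profile differs between a long and a short exposure to the same cytokines. The text deposited with the data calls the 3 arrays of a group technical replicates, whereas the study's methods call them replicates, so the p-values may measure the spread between preparations of the same culture. INS1 is a tumour line, so the values describe that line and not primary islets.

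A miR is a short RNA that guides the silencing complex to messenger RNAs, mainly through its seed, the bases near its 5′ end that pair with the target. IL-1β acts through its receptor and the adaptor proteins IRAK1 and TRAF6 on the transcription factor NF-κB, which switches on inflammatory genes and also the gene of miR-146a. miR-146a in turn targets the messenger RNAs of IRAK1 and TRAF6, and the loop is a textbook example of negative feedback on this pathway.

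The sequences below are those of the 6 miRs that passed the test between 24h_Cyt and 6h_Cyt, followed by the other member of the miR-146 family and the 3p arms of the miR-29 family, whose values are described after them. They are RefSeq mature sequences (GRCr8), 5′ to 3′, with the seed (bases 2 to 8) in capitals.
miR-146a-5p: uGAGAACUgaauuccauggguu
miR-3584-5p: gGGAGGAGuccaggaggc
miR-762: gCGGGGCUagggccggga
miR-877: gUAGAGGAgauggcgcaggg
miR-370-3p: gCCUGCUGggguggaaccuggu
miR-223-3p: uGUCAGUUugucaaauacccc
miR-146b-5p: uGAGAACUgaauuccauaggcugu
miR-29a-3p: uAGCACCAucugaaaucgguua
miR-29b-3p: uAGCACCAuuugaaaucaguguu
miR-29c-3p: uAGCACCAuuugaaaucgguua

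Of the 758 miRs on the array, 685 were matched by name to a RefSeq mature sequence. Of the 6 miRs that passed the test, 1 shared its seed with another matched miR of the array: miR-146a-5p and miR-146b-5p have the same seed and are identical over their first 17 bases. The 3 miR-29 arms share another seed. On GRCr8, miR-146a-5p lies at chr10:28350053-28350074 on the minus strand, within the annotated long non-coding RNA LOC134480673. miR-3584-5p lies at chr1:256727582-256727599 within the span of Itprip, miR-762 at chr1:191754386-191754403 within Bcl7c and miR-877 at chr20:2816284-2816303 within Abcf1. miR-370-3p lies at chr6:134354538-134354559 and miR-223-3p at chrX:65151450-65151470, both within long non-coding RNAs. The matched miRs had a median GC content of 47.8%, and 15.2% of them had 60% or more. miR-762 (83.3%), miR-3584-5p (72.2%), miR-370-3p (68.2%) and miR-877 (65%) were among the latter, whereas miR-146a-5p had 40.9% and miR-223-3p 42.9%.

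Each array held 16 spots per miR, read as the median foreground signal of the spot. The arrays were quantile-normalized, which gives all arrays the same distribution of values, and the log2 values of the 16 spots were averaged. These averages are called the log2 signal, and log2FC is the mean log2 signal of 24h_Cyt minus that of 6h_Cyt. No background was subtracted, so a log2FC near the background does not give the size of the change of the RNA. The scanner software marks spots that stand well above background, and a miR counted as above background where 8 or more of its 16 spots had this mark. On this rule 133 miRs were above background on all 6 arrays and 547 on none of the 6. A miR was called when its absolute log2FC exceeded 0.1375 and its adjusted p was below 0.05 by limma with Benjamini-Hochberg adjustment over the 758 miRs, fitted to the values of all 24 arrays.

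The 24h_Cyt arrays were brighter than the 6h_Cyt arrays before normalization. The 75th percentile of the background-subtracted signal, over the 117 miRs above background on all 24 arrays, was 1003, 742 and 596 on the 24h_Cyt arrays and 378, 387 and 413 on the 6h_Cyt arrays. The number of miRs above background was 211, 177 and 176 at 24 h and 146, 157 and 134 at 6 h. Replicates 1 and 2 of 24h_Cyt lay on slide 1, which carried another project label than the other slides and was scanned on another day. Replicate 3 of 24h_Cyt shared slide 2 with replicates 2 and 3 of 6h_Cyt, and replicate 1 of 6h_Cyt lay on slide 4. The part of brightness and of slide in the differences given here was not tested as a cause, and the values that bear on them stand beside the results. After normalization, Pearson's r across the 168 miRs above background in at least 1 group lay between 0.989 and 0.996 among the 24h_Cyt arrays, between 0.983 and 0.998 among the 6h_Cyt arrays and between 0.970 and 0.994 across the groups. These ranges overlap, and within 6h_Cyt it was replicate 2 that correlated least with the others.

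The cells were first checked against miRs known from β-cell lines. Of 8 such miRs, 6 were above background on all 6 arrays. miR-375-3p, the abundant islet miR that restrains insulin secretion, had a log2 signal of 9.78 to 9.93 at 24 h and 9.96 to 10.11 at 6 h. miR-200a-3p and miR-200b-3p were above background on none of the 6. Of 14 miRs that mark other cells, such as muscle, liver, blood or vessel wall, 11 were above background on none of the 6 arrays, among them miR-122-5p of hepatocytes and miR-142-3p of blood cells. miR-206-3p, a muscle miR, was above background on all 6. The summed background-subtracted signal of these 14 miRs was 137 to 210 on the 24h_Cyt arrays and 80.5 to 148 on the 6h_Cyt arrays, and its part in the results was not tested.

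Between 24 h and 6 h of cytokine exposure 6 of the 758 miRs were called (0.792%), 5 of them higher (0.66%) and 1 lower (0.132%) at 24 h, and 104 miRs (13.7%) had an unadjusted p below 0.05. miR-146a-5p, miR-3584-5p, miR-762, miR-877 and miR-370-3p rose and miR-223-3p fell. None of the 6 was above background on any 6h_Cyt array, while 2 of them, miR-3584-5p and miR-146a-5p, were above background on all 24h_Cyt arrays. For the other 4 the values are differences in measured signal below the background mark, from which no fold is read. Of the 133 miRs above background on all 6 arrays, 0 were called by limma on array means and 12 had an unadjusted p below 0.05. The pooled correlation test, the study's own fit, called 7 of the 133. In it the 16 spots of a miR enter as correlated values, and the pooled correlation was 0.0373. At so low a value the spots of an array, which share 1 RNA, count almost as separate replicates. Calls of this test are therefore given beside those on array means, not as independent evidence. That test called 18 of the 758 miRs (2.37%), 12 higher (1.58%) and 6 lower at 24 h, the 6 above among them. On background-subtracted signal scaled between the arrays, limma called miR-129-5p, miR-153-3p and miR-598-3p of the 133. The standard error of the log2FC had a median of 0.133 over these 133 miRs and of 0.028 over all 758.

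**Figure D1:**
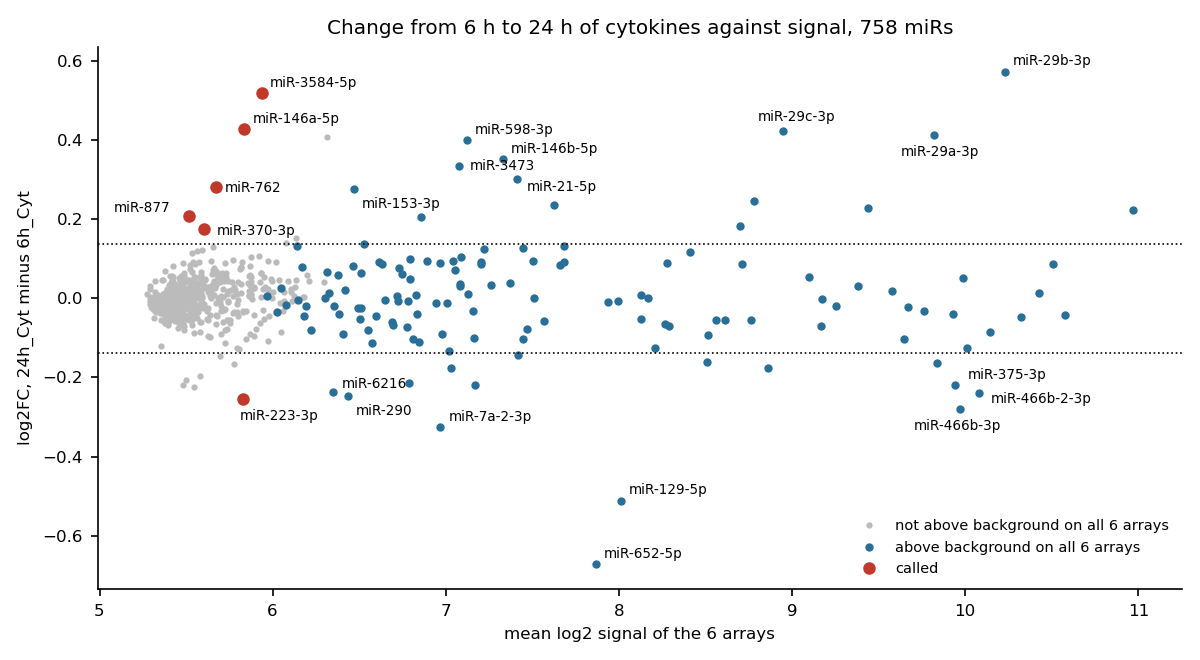
Each point is a miR, with its mean log2 signal over the 6 cytokine arrays on the x axis and its log2FC, 24h_Cyt minus 6h_Cyt, on the y axis; dotted lines mark the log2FC threshold. The 6 called miRs (red) lie at the low end of the signal, while the miRs above background on all 6 arrays (blue) reach log2FCs of 0.57 (miR-29b-3p) and -0.67 (miR-652-5p, 0.092 without normalization between arrays) without being called.

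miR-146a-5p was the miR with the smallest p. Its log2 signal was 6.11, 6.04 and 5.99 on the 24h_Cyt arrays and 5.65, 5.62 and 5.59 on the 6h_Cyt arrays. The 3 arrays at 24 h all lay above the 3 at 6 h, and the gap between the groups was several times the spread within either. The log2FC was 0.43 (SE 0.032, limma adjusted p = 8.14e-08). As a fold it is at least 1.07, the mean of 24h_Cyt set against the lowest signal of a miR above background on each 6h_Cyt array. The background-subtracted signal, before any scaling, was 44.9, 37.7 and 26.0 at 24 h and 4.75, 4.19 and 0.915 at 6 h. After scaling each array to the 75th percentile of the 117 miRs above background throughout, this signal gave a log2FC of 1.52. Before log2 was taken, scaled spots below a floor were raised to it, since negative values have no log2. A difference on the scaled signal that reaches this floor is narrowed, so its size is not read. Within slide 2, replicate 3 of 24h_Cyt was 0.39 above the mean of the 2 arrays of 6h_Cyt.

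The spots of miR-146a-5p carry 2 probes that differ by 1 base, and the longer one, whose additional base is in capitals, reads bases 3 to 22 of the miR. They are shown because the difference between the exposures was not the same on both.
19-base probe: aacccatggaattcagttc
20-base probe: aacccatggaattcagttcT
On the 19-base probe the mean log2 signal was 5.80 at 24 h and 5.56 at 6 h, a difference of 0.24. On the 20-base probe it was 6.29 and 5.68, a difference of 0.61. Both differences are positive, and neither probe has its full complement in another matched miR of the array. The second member of the family, miR-146b-5p, was above background on all 6 arrays. Its log2 signal was 7.65, 7.43 and 7.44 at 24 h and 7.24, 6.96 and 7.26 at 6 h. The groups did not overlap, but the spread within each was large against the difference of 0.35 (SE 0.18, limma adjusted p = 0.449). In a fit with brightness as covariate, tried once the values were known, this difference was -0.11.

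miR-3584-5p is a miR of the Itprip locus that the study lists among those moved by cytokines and Givinostat on these arrays, so its change is no independent evidence of that list. Its log2 signal was 6.23, 6.20 and 6.17 at 24 h and 5.65, 5.65 and 5.73 at 6 h. The groups lay apart with a log2FC of 0.52 (SE 0.052, limma adjusted p = 2.96e-06), the largest among the called miRs, and as a fold the difference is at least 1.19. Its probes of 13 and 14 bases gave differences of 0.55 and 0.49. Within slide 2 the difference was 0.47, and on the scaled background-subtracted signal it was 2.04.

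miR-762, miR-877 and miR-370-3p were called on small differences between tight groups. The log2 signal of miR-762 was 5.83, 5.82 and 5.79 at 24 h and 5.53, 5.53 and 5.56 at 6 h, a log2FC of 0.28 (SE 0.022, limma adjusted p = 8.14e-08). For miR-877, which is spliced out of an intron of Abcf1 rather than cut from a primary hairpin transcript, it was 5.62, 5.66 and 5.57 against 5.44, 5.36 and 5.43 (log2FC 0.21, SE 0.028, adjusted p = 0.000117). For miR-370-3p, a miR of the imprinted Dlk1-Dio3 region, it was 5.70, 5.67 and 5.69 against 5.55, 5.49 and 5.51 (log2FC 0.17, SE 0.024, adjusted p = 0.000212). In all 3 miRs the groups did not overlap, and none was above background on any of the 6 arrays. Within slide 2 the differences were 0.25, 0.18 and 0.19. On the scaled background-subtracted signal they were 0.93 for miR-762, 0.095 for miR-877 and 0.23 for miR-370-3p. The call of miR-877 was lost on that signal, with normexp background correction (0.13), without slide 1 (0.16) and with the 2 groups fitted alone, and that of miR-370-3p with normexp (0.12).

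These miRs are read by short probes, and those of miR-877 are printed because they are the shortest among the called miRs. Bases beyond the shortest probe are in capitals.
10-base probe: ccctgcgcca
11-base probe: ccctgcgccaT
12-base probe: ccctgcgccaTC
13-base probe: ccctgcgccaTCT
The 4 probes gave differences of 0.22, 0.23, 0.18 and 0.20 in that order, so all were positive. The longest reads bases 8 to 20 of the miR, so that its probes see its 3′ part. Of the 758 miRs, 206 (27.2%) were read by probes of 15 bases or fewer, and miR-3584-5p, miR-762, miR-877 and miR-370-3p were the 4 called among these, the length of 15 having been chosen after these probes were seen. Over the 206 miRs the median log2FC was 0.0066, against -0.0091 over the 552 miRs with a longer probe.

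miR-223-3p, a miR of the myeloid lineage, was the called miR that fell. Its log2 signal was 5.69, 5.68 and 5.75 at 24 h and 5.98, 5.93 and 5.97 at 6 h, with no overlap (log2FC -0.25, SE 0.059, limma adjusted p = 0.0494). Its probes of 20 and 21 bases gave differences of -0.26 and -0.25, and within slide 2 the difference was -0.20. It was above background on none of the 6 arrays. This call was lost without any 1 of the 6 cytokine arrays and without each of 11 other arrays, and was kept without each of the other 7, with adjusted p between 0.00111 and 0.198 over the 24 fits. It was also lost with slide as a fixed or random block, without slide 1 and without normalization between arrays (-0.098). The same held on the deposited table, on the mean foreground signal and with array brightness as a covariate. The other 5 called miRs remained called without each of the 24 arrays.

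**Figure D2:**
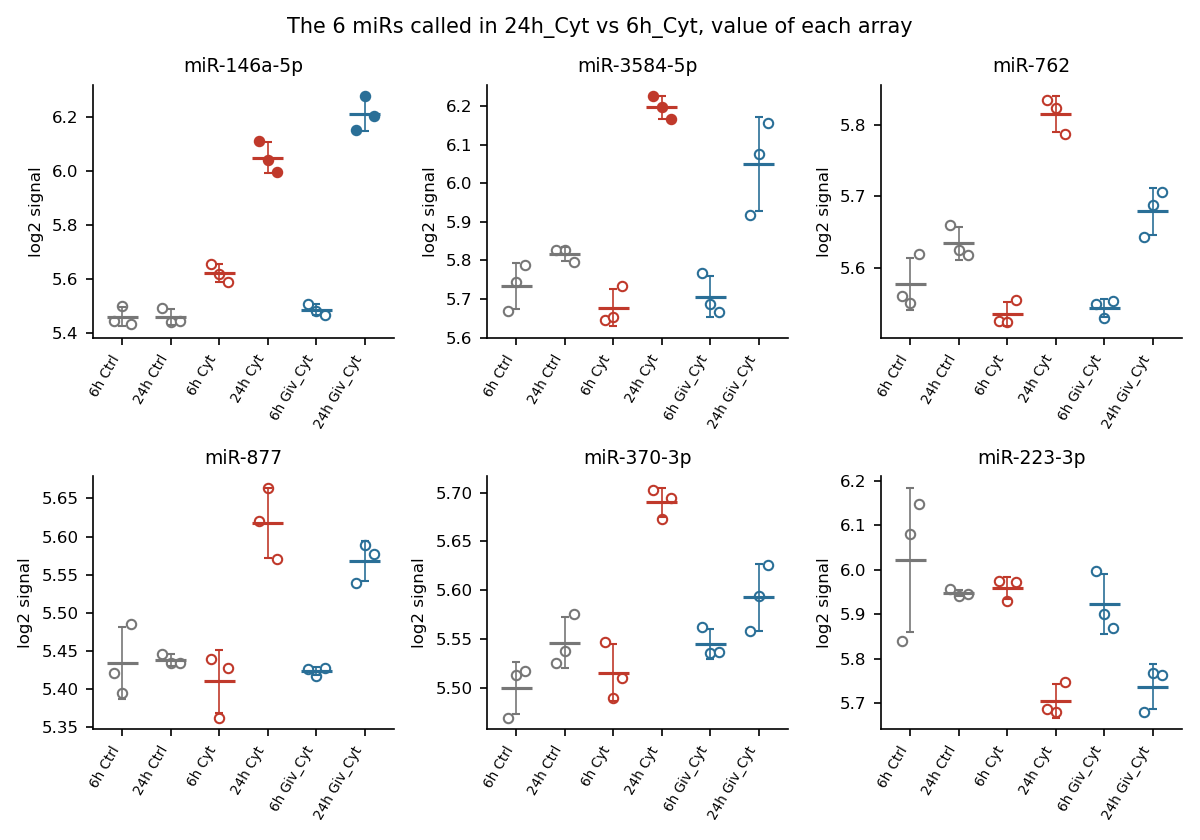
Log2 signal of the 6 called miRs on each array (y axis) in cells without cytokines (grey), with cytokines (red) and with Givinostat and cytokines (blue) at 6 h and 24 h; points run from replicate 1 to 3, lines are means and bars SDs (n = 3), and filled points mark groups in which all 3 arrays were above background. In each panel the 3 24h_Cyt arrays lie apart from the 3 6h_Cyt arrays.

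Among the miRs above background on all 6 arrays the highest values were those of the miR-29 family, known for silencing collagen and other matrix messages. All 3 arms were higher at 24 h without overlap, and none was called. For miR-29b-3p the log2 signal was 10.57, 10.44 and 10.53 at 24 h and 10.13, 9.73 and 9.97 at 6 h, a difference of 0.57 (SE 0.16, limma adjusted p = 0.0992). For miR-29a-3p it was 10.03, 10.06 and 9.99 against 9.78, 9.39 and 9.68 (0.41, SE 0.15, adjusted p = 0.193). For miR-29c-3p it was 9.17, 9.21 and 9.09 against 8.94, 8.47 and 8.80 (0.42, SE 0.19, adjusted p = 0.301). In each, replicate 2 of 6h_Cyt was the lowest array and the 6h_Cyt arrays varied more than the 24h_Cyt arrays. Within slide 2 the differences of miR-29a-3p, miR-29b-3p and miR-29c-3p were 0.46, 0.68 and 0.46. The pooled correlation test called miR-29b-3p and miR-29c-3p. With array brightness as a covariate the difference of miR-29c-3p was -0.011, while it was positive for the 3 arms under each scaling of the arrays.

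The other 5 miRs with the highest log2FC among the 133 were miR-598-3p (0.40), miR-146b-5p (0.35), miR-3473 (0.33), miR-21-5p (0.30) and miR-153-3p (0.28). None was called by limma on array means of the log2 signal, with adjusted p between 0.0992 and 0.449, although miR-146b-5p was among the calls of the pooled correlation test. In each of the 5 the groups did not overlap. On the scaled background-subtracted signal limma called miR-598-3p (0.56, adjusted p = 0.00705) and miR-153-3p (0.43, adjusted p = 0.0363). miR-3473 had a log2 signal of 7.20, 7.17 and 7.35 at 24 h and 6.97, 6.82 and 6.94 at 6 h. Its highest array at 24 h was replicate 3, which lay on slide 2, and the difference within that slide was 0.47. miR-21-5p, a miR induced by many inflammatory stimuli, had values of 7.69, 7.54 and 7.45 at 24 h and 7.30, 7.15 and 7.33 at 6 h.

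On 1 array without cytokines, replicate 1 of 6h_Giv_Ctrl, slide 1 can be read against slide 2, which held the other 2 arrays of that group. On it miR-29a-3p, miR-29b-3p and miR-29c-3p were higher than on the other 2 arrays by 0.43, 0.40 and 0.63, miR-146b-5p by 0.75, miR-598-3p by 0.61 and miR-21-5p by 0.66. Apart from miR-29b-3p, these differences are larger than those between 24h_Cyt and 6h_Cyt. miR-153-3p was likewise higher by 0.35, more than the 0.28 between the exposures, whereas miR-3473 was higher by 0.14, less than between the exposures. For the called miRs the same reading was 0.17 for miR-3584-5p, 0.069 for miR-370-3p, 0.043 for miR-762, -0.0066 for miR-223-3p, -0.0097 for miR-146a-5p and -0.056 for miR-877, in each case smaller in size than the log2FC between the exposures.

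At the other end of the 133 miRs lay miR-652-5p (-0.67), miR-129-5p (-0.51), miR-7a-2-3p (-0.33), miR-466b-3p (-0.28), miR-290 (-0.25), miR-466b-2-3p (-0.24), miR-6216 (-0.24) and miR-375-3p (-0.22). None was called by limma on array means of the log2 signal, with adjusted p between 0.0639 and 0.904, and the pooled correlation test called miR-652-5p, miR-7a-2-3p and miR-290 as lower. On the scaled background-subtracted signal limma called miR-129-5p (-0.73, adjusted p = 0.00526). Scaled to the 75th percentile of all miRs, that signal gave a call of miR-7a-2-3p (-0.55, limma adjusted p = 0.0450). All 8 were positive without normalization between arrays, from 0.092 for miR-652-5p to 0.61 for miR-466b-2-3p, where the median of the 133 miRs was 0.66. They were therefore lower relative to the other miRs of the array rather than in raw signal. The log2 signal of miR-652-5p was 7.34, 7.46 and 7.79 at 24 h and 8.46, 7.93 and 8.21 at 6 h (SE 0.18, adjusted p = 0.0992). The groups did not overlap, with replicate 3 of 24h_Cyt nearest to the 6 h arrays and a difference of -0.28 within slide 2. Its background-subtracted signal was 244, 222 and 237 at 24 h and 261, 179 and 217 at 6 h, which overlap. For miR-129-5p the log2 signal was 7.85, 7.61 and 7.80 against 8.29, 8.14 and 8.37 (SE 0.13, adjusted p = 0.0992). For miR-7a-2-3p it was 6.73, 6.90 and 6.78 against 7.14, 7.17 and 7.08 (SE 0.080, adjusted p = 0.0639). In both the groups lay apart, and miR-7a-2-3p was called in 5 of the 24 fits that left out an array and miR-129-5p in 1.

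miR-466b-3p and miR-466b-2-3p, both within the span of Sfmbt2, did not differ beyond their spread. The log2 signal of miR-466b-3p was 9.52, 10.25 and 9.71 at 24 h and 9.98, 10.57 and 9.77 at 6 h, and replicate 2 was the highest array of both groups.

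**Figure D3:**
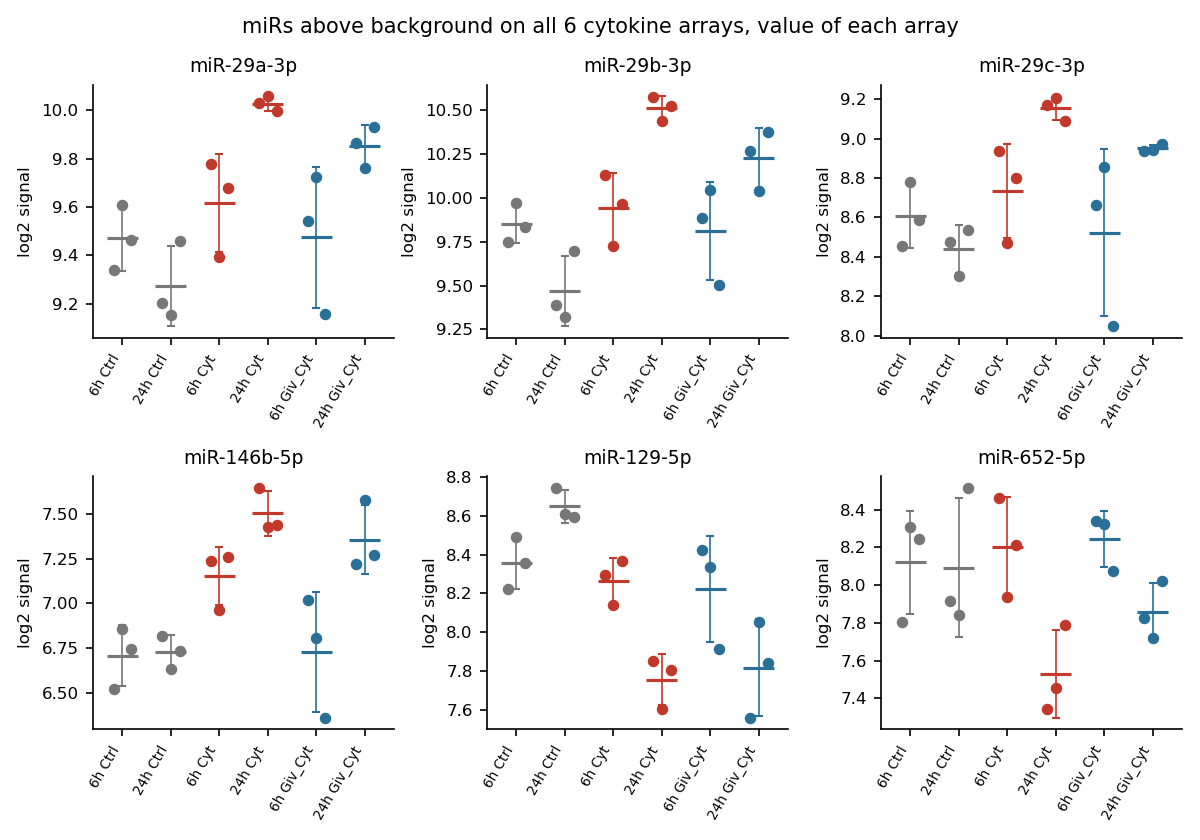
Log2 signal on each array (y axis) of 6 miRs above background on all 6 cytokine arrays, in the same groups, order and colours as in the plot of the called miRs, with means and SDs (n = 3). The 3 miR-29 arms and miR-146b-5p lay higher and miR-129-5p and miR-652-5p lower at 24 h of cytokines. None of them was called by limma on array means of the log2 signal. The pooled correlation test called miR-29b-3p, miR-29c-3p, miR-146b-5p and miR-652-5p, and limma on the scaled background-subtracted signal called miR-129-5p. Without normalization between arrays miR-129-5p (0.20) and miR-652-5p (0.092) were positive. With brightness as a covariate miR-146b-5p and miR-29c-3p were negative.

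Over all 758 miRs, 165 (21.8%) had groups that did not overlap, 64 of them higher (8.44%) and the rest lower (13.3%). Among the 133 miRs above background on all 6 arrays it was 25 (18.8%), 15 higher (11.3%) and 10 lower (7.52%). The lists that follow are read against these shares, and since the 133 miRs had a median of 0.66 without normalization between arrays, their directions are relative to the other miRs of the array. Their members were taken from textbook families and from the study and chosen with earlier results of these arrays known.

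Of 10 miRs linked to NF-κB or to cytokines, miR-146a-5p rose, 0 fell and 9 did not pass the test, of which miR-146b-5p passed in the pooled correlation test. The groups did not overlap in 4, with miR-146a-5p, miR-146b-5p and miR-21-5p higher and miR-34a-5p lower. miR-155-5p, induced by inflammatory signals in leukocytes, was above background on none of the 6 arrays (log2FC 0.026). miR-132-3p and miR-212-3p, which share a transcript, were above background on all 6 and had log2FCs of -0.18 and -0.21 (limma adjusted p = 0.770 and 0.678). The median over the list was 0.027, against -0.0043 over all miRs.

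Of 7 islet-enriched miRs, 0 were called by limma on array means of the log2 signal, the pooled correlation test likewise called 0, and 1 had an unadjusted p below 0.05. Their median log2FC was -0.036. On the scaled background-subtracted signal limma called miR-129-5p of this list, as lower. miR-375-3p was 9.79, 9.78 and 9.93 at 24 h and 10.09, 9.96 and 10.11 at 6 h, a difference of -0.22 (limma adjusted p = 0.463) that was 0.57 without normalization. miR-7a-5p, another miR abundant in endocrine islet cells, was 11.04 to 11.13 against 10.53 to 11.04 (0.22, adjusted p = 0.492). Its groups overlapped, since replicate 3 of 6h_Cyt lay just above replicate 2 of 24h_Cyt, and replicate 2 of 6h_Cyt lay far below the other arrays.

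The epithelial miR-200 family and the miR-183 cluster had members on both sides of 0. Of the 5 miR-200 3p arms, 0 were called by limma on array means or by the pooled correlation test, 1 had an unadjusted p below 0.05 and the median was -0.021. Of the 3 miRs of the miR-183 cluster, which come from the same transcript, miR-182 (-0.14, limma adjusted p = 0.0639) and miR-183-5p (-0.071) were lower and miR-96-5p (0.24, adjusted p = 0.535) higher at 24 h, each without overlap. miR-182 was the tightest of them, at 7.30, 7.36 and 7.37 against 7.50, 7.48 and 7.49, and was not called. The pooled correlation test called miR-96-5p of this cluster. On the slide 1 array without cytokines miR-96-5p was higher by 0.36 than on the other arrays of that group, more than between the exposures. On that array miR-183-5p was higher by 0.51 and miR-182 by 0.041.

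The large, broadly expressed families gave small values. All 9 let-7 and miR-98 arms, known as brakes on proliferation, were above background on all 6 arrays and had log2FCs between -0.13 and 0.013, with a median of -0.043 and 0 calls. The 5 miR-30 5p arms had a median of 0.060 and the 5 miRs with the miR-15/16 seed one of 0.032, with 0 calls in either. Of the 11 guide arms of the miR-17/92 cluster and its relatives, 8 were above background on none of the 6 arrays, and miR-106b-5p (0.23) and miR-93-5p (-0.18), from the same hairpin cluster, lay on opposite sides of 0 without overlap. miR-101a-3p and miR-101b-3p, regulators of the methyltransferase Ezh2, were both higher at 24 h without overlap, by 0.41 and 0.20 (limma adjusted p = 0.188 and 0.705). miR-101b-3p was above background on all 6 arrays and miR-101a-3p was not. On the slide 1 array without cytokines, miR-101b-3p was higher by 0.63 than on the other arrays of that group. In the same reading miR-106b-5p was higher by 0.38, more than between the exposures, and miR-93-5p by 0.085. In these 5 lists limma on array means called 0 miRs, the pooled correlation test called miR-101a-3p, and 2 had an unadjusted p below 0.05.

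The 4 reference miRs of the study's qRT-PCR were not called. The log2FCs of both miR-423 arms were slightly positive, at 0.056 for the 3p and 0.064 for the 5p arm, whereas miR-103-3p had -0.10 and let-7c-5p -0.12. Only miR-103-3p and let-7c-5p were above background on all 6 arrays, and 1 miR-423 arm was on none, so the miR-423 values lie near background. Of the 13 miRs that the study lists for cytokines and Givinostat, chosen on these same arrays, miR-146a-5p and miR-3584-5p rose, 0 fell and 11 did not pass by limma on array means. The pooled correlation test called 8 of the 13, with miR-101a-3p, miR-146a-5p, miR-146b-5p, miR-29c-3p, miR-3584-5p and miR-96-5p higher and miR-652-5p and miR-7a-2-3p lower. Of the 14 miRs marking other cells, miR-223-3p fell and the others had log2FCs between -0.11 and 0.04.

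**Figure D4:**
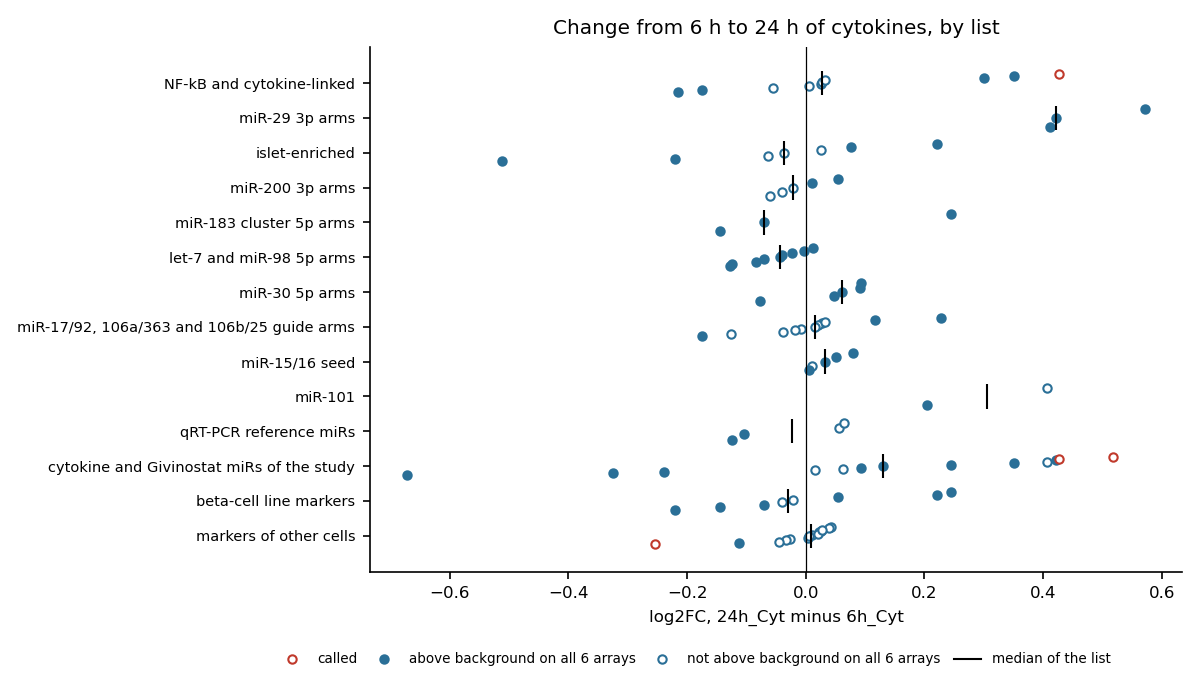
Log2FC of 24h_Cyt minus 6h_Cyt (x axis) for each member of the lists (rows); black ticks are list medians, red circles the called miRs and filled points the miRs above background on all 6 arrays. The miR-29 arms lie between 0.41 and 0.57 and the let-7 arms between -0.13 and 0.013.

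To ask whether the differences belong to time in culture, the same 2 times were compared in cells without cytokines. The limma term that subtracts the change of the controls from that of the cytokine-exposed cells was called for 4 miRs of 758 (0.528%), all positive, and 71 miRs (9.37%) had an unadjusted p below 0.05. The 4 were miR-146a-5p (0.43, SE 0.046, limma adjusted p = 2.12e-05), miR-762 (0.22, adjusted p = 0.000416), miR-3584-5p (0.44, adjusted p = 0.00368) and miR-877 (0.20, adjusted p = 0.0111). In the controls miR-146a-5p was 5.49, 5.44 and 5.44 at 24 h and 5.44, 5.50 and 5.43 at 6 h, which overlap. All 6 control arrays lay below the 6 cytokine arrays, and the change between the times was -0.0010. The control change of the other 3 was small, at 0.0041 for miR-877, 0.057 for miR-762 and 0.083 for miR-3584-5p. When slide entered as a fixed block, miR-146a-5p alone was called for the term (0.47, limma adjusted p = 0.0404). The term of miR-877 was also not called with normexp (0.13), on either scaled background-subtracted signal or without normalization between arrays. Nor was it called without slide 1, with the compared groups alone or with brightness as a covariate. That of miR-3584-5p was also not called with scaling to all miRs or with brightness as a covariate. All 24h_Ctrl arrays lay on slide 4 and all 6h_Ctrl arrays on slide 2, so within the controls slide and time cannot be told apart.

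Between 24h_Ctrl and 6h_Ctrl, 8.58% of the 758 miRs did not overlap. The miR-29 arms were lower at 24 h in these cells, with a median change of -0.20, and for miR-29b-3p the term was 0.96 (limma adjusted p = 0.0696). When the compared groups were fitted alone it was called (adjusted p = 0.0260). For miR-129-5p the control change was 0.29 and the term -0.80 (adjusted p = 0.0696, and 0.0131 with these groups alone).

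With Givinostat and cytokines, miR-146a-5p was 6.15, 6.28 and 6.20 at 24 h and 5.51, 5.48 and 5.47 at 6 h. Its lowest array at 24 h lay above the highest of 24h_Cyt, its highest at 6 h lay below the lowest of 6h_Cyt, and the change between the times was 0.72. The term that subtracts this change from that of the cells without Givinostat was -0.30 for miR-146a-5p (SE 0.046, limma adjusted p = 0.00343), the miR called among 758 (0.132%), while 28 (3.69%) had an unadjusted p below 0.05. The term was not called with slide as a fixed block (-0.31), without normalization between arrays (-0.30, limma adjusted p = 0.507), with the detected miRs alone or with the 4 groups fitted alone. The term of miR-762 was 0.14 (adjusted p = 0.0679), with a change of 0.13 under Givinostat. For miR-3584-5p the change with Givinostat was 0.34, for miR-877 0.14, for miR-370-3p 0.048 and for miR-223-3p -0.18. The limma adjusted p of the term was 0.352 or more for each of these 4 on array means, which does not show that the changes are alike, and the pooled correlation test called the term of miR-3584-5p (0.18, adjusted p = 0.00291). The median change of the miR-29 arms was 0.42 with Givinostat. miR-3473 was 7.20, 7.04 and 7.09 at 6 h and 6.80, 6.96 and 7.06 at 24 h with Givinostat, a change of -0.17 against 0.33 without it (term 0.50, limma adjusted p = 0.232). Without normalization between arrays miR-3473 was the miR called for this term, in place of miR-146a-5p (0.72, limma adjusted p = 0.000216).

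**Figure D5:**
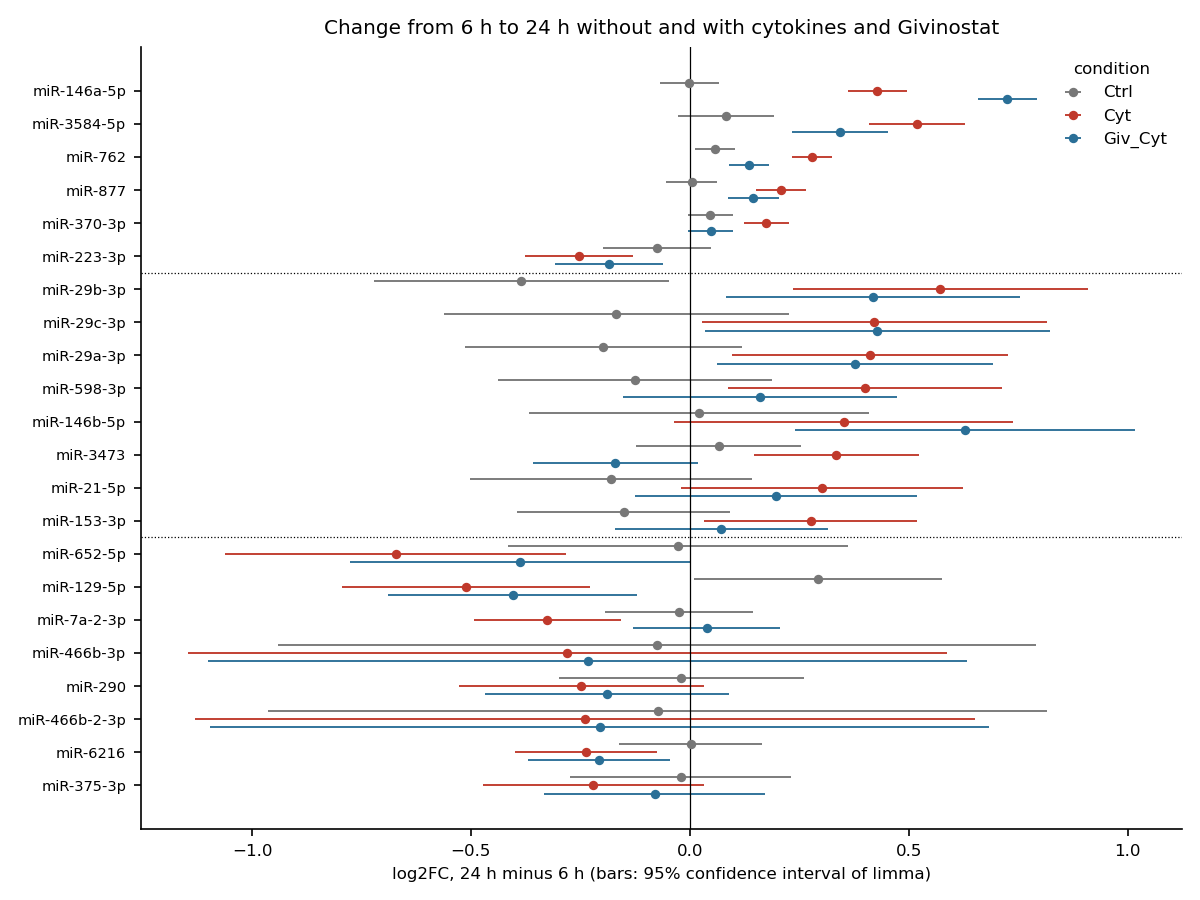
Change of the log2 signal from 6 h to 24 h (x axis) in cells without cytokines (grey), with cytokines (red) and with Givinostat and cytokines (blue); points are limma estimates and bars their 95% confidence intervals. The upper block holds the 6 called miRs, below it the 8 miRs with the highest and the 8 with the lowest change under cytokines among the 133 above background on all 6 arrays; the lower 8 were positive without normalization between arrays. The values of miR-146a-5p were -0.0010, 0.43 and 0.72 in the 3 conditions.

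Detection by the scanner's mark moved in the same direction as brightness. Above background on all 3 arrays of 24h_Cyt and none of 6h_Cyt were 7 miRs, and 0 showed the reverse. The 7 were miR-146a-5p, miR-3584-5p, miR-188-5p, miR-211-3p, miR-140-3p, miR-383-5p and miR-487b-5p. Of these, miR-188-5p (log2FC 0.14), miR-211-3p (0.15), miR-140-3p (0.064), miR-487b-5p (0.028) and miR-383-5p (-0.013) were not called by limma on array means, with adjusted p of 0.480 to 0.978, and the groups overlapped in all of these but miR-211-3p. The pooled correlation test called miR-188-5p and miR-211-3p. No fold is read for these 5, which were picked for being above background at 24 h alone.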

How the data were processed

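RNA of INS1 cells was hybridised with a single Cy3 dye to 24 rat miR arrays, 3 in each of 8 groups. The deposited scanner files hold spot intensities, and per the labels the authors extracted them with Agilent Feature Extraction 9.1, while the file headers name a later version. Their processed intensity is background-subtracted. The deposited table holds log2 values, which the authors obtained from quantile-normalized median foreground signals. The median over the spots of a miR, recomputed from the scanner files, differed from it by at most 4.9e-09.

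From the scanner files, median foreground signals of the miR spots were quantile-normalized without background correction and the 16 log2 spot values of each miR averaged per array. Array means were fitted with limma 3.58.1 (R 4.3.3; lmFit, eBayes) with 1 mean per group over all 24 arrays, leaving 16 residual degrees of freedom. Benjamini-Hochberg adjustment ran over 758 miRs, with calls at an absolute log2FC above 0.1375, a 1.1-fold change, and adjusted p below 0.05. The study uses the same log2 cutoff but describes it as a 1.15-fold change. At 1.15-fold, miR-370-3p was no longer called. The array was the unit, since the spots of an array share 1 RNA. The fit was tested on simulated data with independent noise for each miR and array. That test does not cover differences between slides, in brightness or shared by many miRs. Precision is limited by 3 arrays per group.

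Named miRs are those called in the comparison or in the time terms, the 8 highest and 8 lowest log2FCs among miRs above background on all 6 arrays, the study's own list and members of the lists. The members and lists were chosen with earlier results of these data known. Deviations from the group means correlated across miRs at 0.54, 0.81 and 0.18 for replicate numbers 1, 2 and 3 of 24h_Cyt and 6h_Cyt, with the numbers taken from the sample titles. Unlike numbers reached as much, at 0.78 for 24h_Cyt replicate 1 with 6h_Cyt replicate 3 and 0.23 for replicate 3 with replicate 1, so the numbers do not by themselves show a pairing. The alternatives tried were the pooled correlation test, the spot summary, the foreground signal, background correction, scaling, a filter on dim miRs, slide, replicate block, samples fitted, threshold, the deposited table, and each array left out. Array brightness as a covariate, another fold threshold and the difference within slide 2 were added after the data were seen.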

Additional observations from a re-analysis of the deposited data

Results flagged for a closer look

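The change from 6 h to 24 h differed between cells with and without cytokines by limma's interaction term for miR-146a-5p (0.43), miR-3584-5p (0.44), miR-762 (0.22) and miR-877 (0.20), on the log2 scale. With slide as a fixed block miR-146a-5p alone remained called. The terms of miR-3584-5p and miR-877 were also lost with brightness as a covariate and with scaling to all miRs. All 24h_Ctrl arrays lay on slide 4 and all 6h_Ctrl arrays on slide 2, and the part of slide in these terms was not tested beyond the fits with slide as a block.

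The change of miR-146a-5p under cytokines was smaller without Givinostat than with it, by a term of -0.30 in the same fit.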

How the results depend on the processing

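The count of miRs called between 24h_Cyt and 6h_Cyt was 18 by the pooled correlation test, 10 (7 positive) with the processed signal scaled to the miRs above background, 122 (all positive) without normalization between arrays, and 2 with only the detected miRs tested. For the time by cytokine term it was 21, 8 and 51 under the first 3 of these, 1 with slide as a fixed block and 2 with brightness as a covariate. For the time by Givinostat term it was 5 by the pooled correlation test, 2 with scaling to all miRs, and 0 with the detected miRs alone, with slide as a fixed block and with the compared groups alone. The positive share of calls between the exposures was 4 of 7 with scaling to all miRs and 3 of 4 with normexp, against 5 of 6. With each array left out the counts were 5 to 10 (10 without 6h_Ctrl replicate 1), 4 to 6 and 1 to 2 (2 without replicate 3 of 24h_Cyt, 24h_Giv_Cyt or 6h_Ctrl). A replicate block gave 6, 4 and 1 calls and changed no call. Without normalization the call of the Givinostat term passed from miR-146a-5p to miR-3473.

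Directions turned without normalization for miR-375-3p (0.57), miR-6216 (0.17), miR-466b-2-3p (0.61), miR-290 (0.23), miR-466b-3p (0.58), miR-7a-2-3p (0.29), miR-129-5p (0.20) and miR-652-5p (0.092). With slide as a fixed block they turned for miR-466b-2-3p (0.16), miR-466b-3p (0.12), miR-455-5p (-0.10), miR-384-5p (-0.13) and miR-140-5p (-0.061). miR-455-5p also turned with slide as a random block (-0.0070), without slide 1 (-0.0059), without 24h_Cyt replicate 1 (-0.023) and without 6h_Cyt replicate 2 (-0.053), where miR-466b-2-3p was 0.0045; with each array left out miR-455-5p lay between -0.053 and 0.056 and miR-466b-2-3p between -0.45 and 0.0045. With brightness as a covariate, added after the data were seen, they turned for miR-29c-3p (-0.011), miR-146b-5p (-0.11), miR-21-5p (-0.17), miR-466b-2-3p (0.65), miR-466b-3p (0.64), miR-96-5p (-0.050), miR-455-5p (-0.22), miR-384-5p (-0.34), miR-340-5p (-0.16) and miR-140-5p (-0.19). The cause of these changes was not tested. Of the 6 called miRs, none turned its direction under the alternatives run. With 547 miRs above background on none of the 6 arrays, most of the array could be compared only near background.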
